A study of Drosophila melanogaster with 2 samples.

Results

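The genes of the translation initiation factors of Drosophila melanogaster were described in a chromatin immunoprecipitation (ChIP-seq) data set for Pumilio (Pum). The members were all protein-coding genes whose symbol starts with eIF followed by a digit, except eIF4E1 and eIF4EHP, which gave 42 of the 13968 protein-coding genes annotated on the 7 chromosome arms. The rule reads the gene symbol alone. Chromatin came from whole embryos of both sexes, pooled and collected over the first 24 h of development. The embryos were of the strain Pum-MiMIC-GFP, in which an eGFP exon inserted in an intron of pum gives a Pum-GFP fusion protein, and the precipitation was directed against GFP. The 2 libraries, biological replicates numbered 2 and 3, formed 1 group with the same strain, stage and antibody, so no conditions were compared. All embryonic tissues were mixed, only 1 tagged line was used, and the control precipitation was not analysed here.

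Translation initiation loads the small ribosomal subunit with initiator tRNA, recruits it to the capped 5′ end of an mRNA, scans to the start codon and joins the large subunit. The eIF2 complex brings the tRNA, eIF2B recharges eIF2 with GTP, eIF3 is the scaffold on the small subunit, the eIF4 factors bind the cap and unwind the mRNA, and eIF1, eIF1A, eIF5 and eIF5B set the start codon and the joining of subunits. Pum is an RNA-binding protein known for repressing the translation of mRNAs such as maternal hunchback in the early embryo, and the values below describe DNA recovered with it, not RNA or protein levels.

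A promoter summit was a peak summit within 500 bp of any annotated transcript start of a gene, where only the strongest of summits less than 250 bp apart was kept. There were 4 peak lists on the dm6 build. Those of the single replicates each held 30000 rows, peaks and background regions together, the pooled list joined both replicates, and the authors' optimal list, filtered for reproducibility between replicates, was the strictest. After thinning, the optimal list held 3816 peaks. The strength of a peak is the signal the authors deposited with it, which ranks peaks within 1 list. It cannot be compared between the replicate lists, or between a replicate list and the pooled list. Summits of initiation factor genes in the optimal list had the same signal and rank in the pooled list. The 3816 strongest pooled peaks also gave the same gene counts as the optimal list, so these lists are not separate evidence. Sequencing depth is unknown, and the 95% Wilson intervals given below cover counting over genes only.

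Of the 42 initiation factor genes, 11 had an optimal promoter summit, or 26.2% (15.3 to 41.1%), and among all protein-coding genes 18.6% had one. The 11 were eIF6, eIF1, eIF5B and eIF1A, which act at start selection, subunit joining or ribosome release, eIF2A, the eIF3 subunits eIF3c, eIF3h, eIF3a, eIF3m and eIF3d1, and eIF4G2. Another 15 genes had a promoter summit in the pooled list but not in the optimal list, 5 had one in a single replicate list, and 11 had none in any list. In the pooled list 26 genes, or 61.9% (46.8 to 75.0%), thus had a summit, beside 48.0% of protein-coding genes. No test was made of these differences, and both intervals include the share of all genes. For all protein-coding genes, the shares with a summit in a single replicate list only, or in no list, were not computed. The counts of 5 and 11 genes are therefore not read as a trait of the family.

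**Figure D1:**
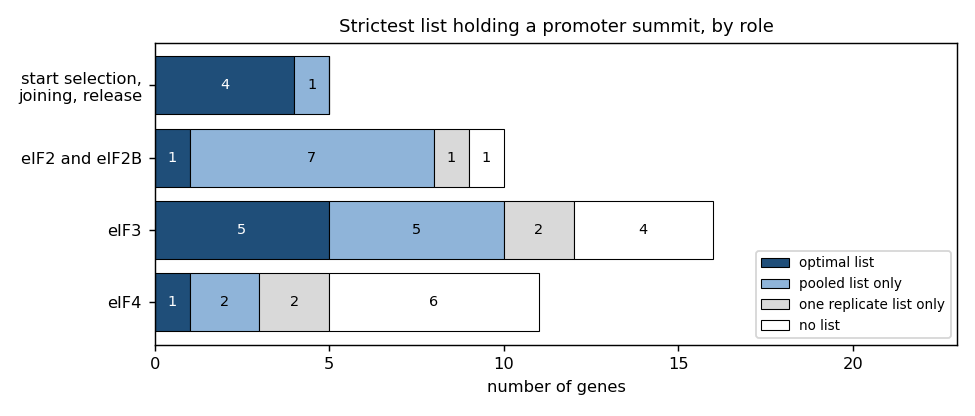
Number of initiation factor genes (horizontal axis) by the strictest list that held a summit within 500 bp of a start, for each of 4 roles (vertical axis). Of the 5 genes of start selection, joining and release 4 were in the optimal list. Of the 10 eIF2 and eIF2B genes 7 were in the pooled list only, and 6 of the 11 eIF4 genes were in no list. Among all protein-coding genes 18.6% had a summit in the optimal list and 48.0% in the pooled list. Each gene of start selection, joining and release had a start of another gene within 500 bp. The optimal share of protein-coding genes with such a neighbour was 34.8%. The share of all protein-coding genes in no list was not computed. The differences between roles were not tested.

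The DNA replication-related element (DRE, TATCGATA, which reads the same on both strands) lay within 100 bp of 5 of the 12 optimal summits at initiation factor genes, those of eIF3a, eIF1A, eIF2A, eIF1 and eIF6. It lay that close to 8.73% of the 1878 optimal summits at protein-coding starts. The summits of eIF3a, eIF1A, eIF1 and eIF6 were closer to a start of another gene. Their DRE sites therefore cannot be given to the initiation factor gene alone, and only the summit of eIF2A had no other start within 500 bp. The DRE is known in Drosophila as the binding site of DREF at promoters of housekeeping and proliferation genes. Because it is the most frequent of the searched motifs at these summits, 4 of the sites are printed 5′ to 3′ on the strand of the initiation factor gene, with the DRE in capitals. They are from the RefSeq sequence of dm6, at chr3R:4433915-4433944 (minus strand, eIF3a), chr3R:18274452-18274481 (plus, eIF1A), chr3L:21824865-21824894 (plus, eIF2A) and chr3L:3223034-3223063 (plus, eIF1).
eIF3a: tcggcctgaacTATCGATAacgcagccagg
eIF1A: atgatgatagaTATCGATAgctttagcggt
eIF2A: ttactatcgctTATCGATAcaccgcgtaca
eIF1: ggcagggcaacTATCGATAagcatttcgta
In eIF3a the first base of the element was 2 bp upstream of the summit, in eIF1A 17 bp upstream, in eIF2A 22 bp upstream and in eIF1 38 bp downstream. Measured from the starts instead, the element's centre lay at -34 in eIF3a, -85 in eIF2A, -198 in eIF1A and -292 in eIF1. The element of eIF6 was placed the other way, with its first base 89 bp downstream of the summit and its centre at -7 from the start. All 5 sites were picked for lying within 100 bp of a summit, which limits these distances.

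In the 250 bp before to 50 bp after the starts, 13 of the 42 genes held a DRE (31.0%), against 10.2% of all protein-coding genes. The share was 5 of 11 among the genes with an optimal promoter summit, where all protein-coding genes with one had 17.1%, and 8 of 31 among the rest, where protein-coding genes without one had 8.56%. The 5 with a summit were eIF1A, eIF2A, eIF3a, eIF3c and eIF6, which differs from the list by distance to the summit: the element of eIF1 lay outside the window of its own start, and that of eIF3c over 100 bp from its summit. The 8 without were eIF2alpha, eIF2gamma, eIF2Bbeta, eIF3f1, eIF3l, eIF4A, eIF4B and eIF4E6. A DRE was thus also present where no optimal summit was listed. As examples of this, sites are shown for eIF2gamma (chr3R:15263449-15263478, minus strand) and eIF4A (chr2L:5981701-5981730, plus), whose summits were in the pooled list, and for eIF4E6 (chr3R:29027214-29027243, minus), which had a summit in no list.
eIF2gamma: gattagagcacTATCGATAggcattgtcgg
eIF4A: ggcgatcgatcTATCGATAgtcgctaatgt
eIF4E6: atcacgcgataTATCGATAtgtttcgattg
The promoter of eIF2gamma held further copies centred at -92 and -73 from its start, beside the one shown at -5.

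The RNA element that Pum is known to bind was searched in the DNA as TGTANATA, on both strands. It lay within 100 bp of the summits of eIF5B and eIF4G2, 2 of 12, against 7.93% of all optimal summits at protein-coding starts. The eIF5B window had a match on each strand, so its sites and the one of eIF4G2 are shown with the match in capitals. The sense match of eIF5B is at chr3L:3460687-3460716 and the antisense match at chr3L:3460664-3460693, both printed on the minus strand, and the antisense match of eIF4G2 is at chr3R:23819169-23819198, also on the minus strand.
eIF5B sense: attgaaaaaggTGTATATAtatttaatata
eIF5B antisense: taatatatcttTATGTACAactatagactc
eIF4G2 antisense: tttctgcagacTATTTACAttacaaaattg
These matches began between 40 and 63 bp from the summits. In the promoter windows the element was present in 7 of 42 genes (16.7%), near the 13.8% of all protein-coding genes.

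A pyrimidine-rich TCT-type initiator is known from promoters of ribosomal protein and other translation genes. TCTTT, on the sense strand within 10 bp of a start, was present in 5 of 42 genes (11.9%), against 3.39% of protein-coding genes, and the 5 were eIF3d1, eIF3g1, eIF3i, eIF3m and eIF4A. The stretches of the genes eIF3d1 (chr3R:23680020-23680044, plus strand), eIF4A (chr2L:5981757-5981781, plus) and eIF3i (chr2L:4967757-4967781, minus) are shown with TCTTT in capitals. Its first base lay at -9 from a start in eIF3d1, and 3 bp and 4 bp downstream of a start in eIF4A and eIF3i. The search did not require a fixed place at the start, so a match need not be an initiator.
eIF3d1: ttagtattttTCTTTggcggtggta
eIF4A: agatggagccTCTTTtgcttggttt
eIF3i: gtcacactgcTCTTTtggcgtgtag
Of these 5 genes, eIF3d1 and eIF3m had an optimal promoter summit. The E-box CAGCTG was found in 5 of 42 promoters against 22.3% of all, the TATA box TATAAA in 18 against 51.2%, GAGAG in 12 against 36.2% and the CTCF core AGGTGGCGC in 0 against 0.394%, all on both strands. Ohler motif 1 was in 4 promoters (eIF2alpha, eIF3i, eIF3l and eIF5B; 4.95% of all) and Ohler motif 6 in that of eIF3d1 (2.52% of all). Each count describes these windows alone, and matches of different motifs may overlap.

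Among the factors of start selection, joining and release, 4 of 5 had an optimal promoter summit (37.6 to 96.4%, all protein-coding genes 18.6%). Each of the 5 genes had a start of another gene within 500 bp of a start. Among protein-coding genes with such a neighbour, 34.8% had an optimal promoter summit. All 5 had a pooled one (56.6 to 100%, all protein-coding genes 48.0%). The optimal summits of eIF6, eIF1 and eIF1A were closer to a start of another gene. When each summit was given to the nearest start alone, only eIF5B of this group kept one. The strongest optimal summit was at eIF6, whose product keeps the large ribosomal subunit from joining prematurely. Its summit on 2R at 23850401 had a signal of 1018 in the optimal list, rank 33, with 700 in replicate 2 (rank 27) and 317 in replicate 3 (rank 58). No other initiation factor gene reached a rank better than 280 in any list. The summit lay 100 bp upstream of the start of eIF6 (FBgn0034915, 2R 23849246 to 23850301, minus strand) and 71 bp from a start of the antisense RNA gene asRNA:CR45928, inside an exon of that gene and an intron of ytr.

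The gene eIF1 (FBgn0035423, 3L 3223341 to 3224650, plus strand), whose product guards start codon choice, had an optimal summit at 3223007 with a signal of 273 and rank 589. The replicate signals were 122 (rank 990) in replicate 2 and 136 (rank 434) in replicate 3. This summit was intergenic, 334 bp upstream of eIF1 and 47 bp upstream of a start of RpL28, a ribosomal protein gene on the opposite strand, and it also lay within 500 bp of snoRNA:Or-CD11a. It was the summit farthest from its initiation factor gene.

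For eIF5B (FBgn0026259, 3L 3428658 to 3460977, minus strand), the GTPase of subunit joining, the summit at 3460745 had a signal of 142 and rank 1798, with 93.5 (rank 1470) in replicate 2 and 42.6 (rank 3351) in replicate 3. It lay 142 bp upstream of the inner of 2 starts, in the 5′ UTR of transcripts from the outer one, and within 500 bp of the start of no other gene. The gene also held 3 optimal summits in introns, far from its starts, at 3438657 (signal 146), 3432881 (84.9) and 3455165 (80.4). The first of these was as strong as the promoter summit, and its replicate signals were 67.6 (rank 2286) and 75.1 (rank 1322).

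The gene eIF1A (FBgn0026250, 3R 18274665 to 18283005, plus strand), which acts with eIF1 in scanning, had a summit at 18274480 with a signal of 109, rank 2602. It had 60.7 in replicate 2 (rank 2593) and 49.1 in replicate 3 (rank 2691), nearly the same rank in both. The summit was intergenic, 185 bp upstream of eIF1A and 34 bp upstream of Vps39 on the opposite strand. The remaining gene, eIF5, encodes the factor that stimulates GTP hydrolysis by eIF2. It had a pooled signal of 39.2 (rank 9525) and a replicate 3 signal of 18.1, with no row in replicate 2, and it shares a start with CG46312.

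**Figure D2:**
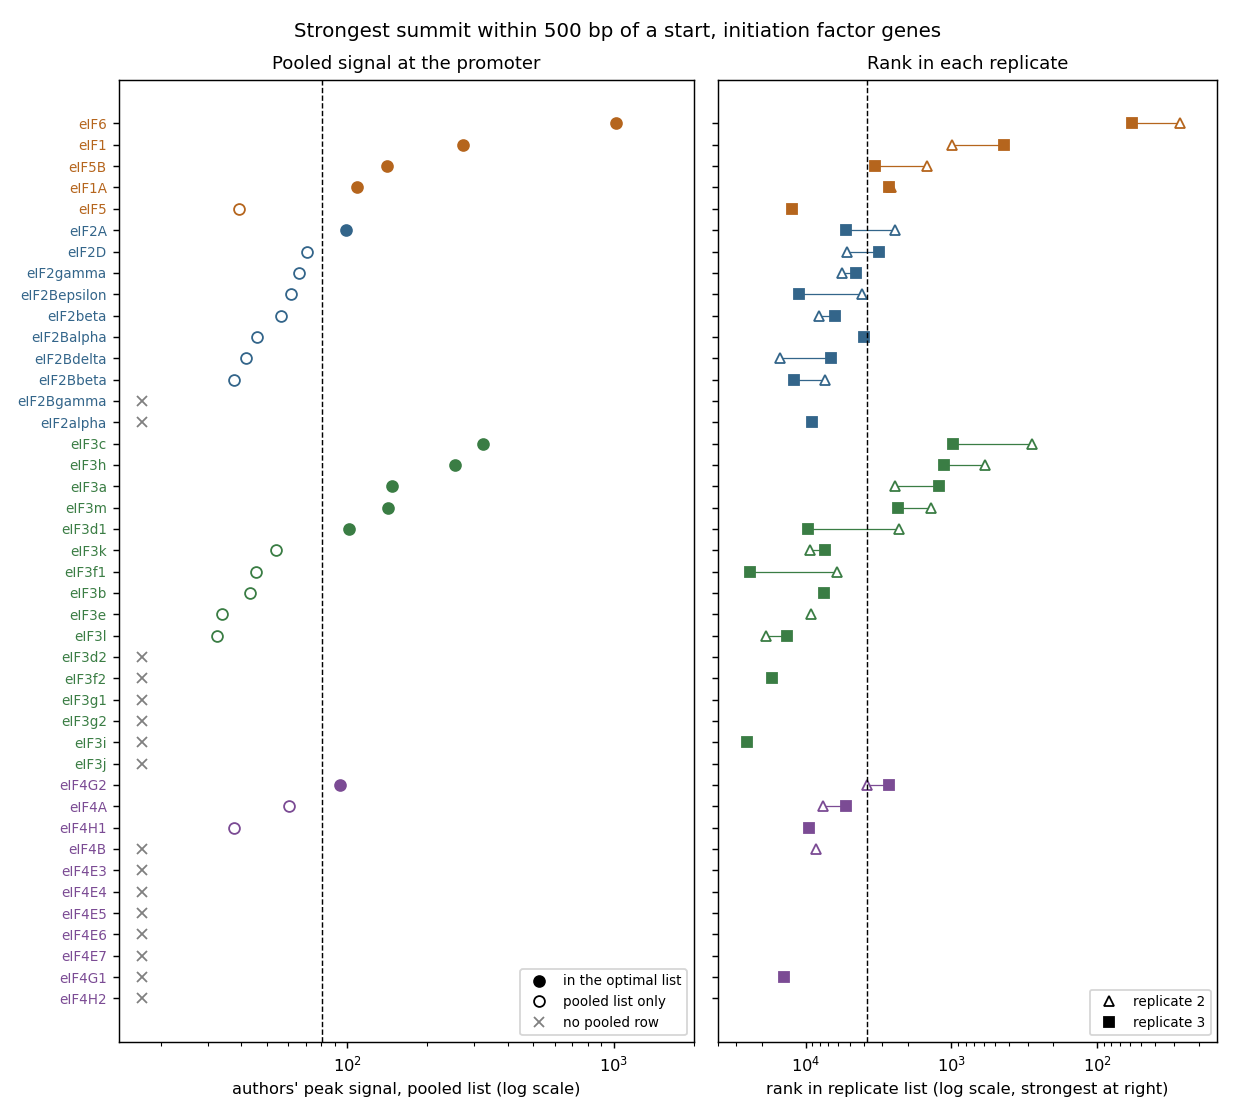
Left, the authors' signal in the pooled list (horizontal, log scale) of the strongest summit within 500 bp of a start of each of the 42 genes, coloured by role, with the weakest optimal peak at the dashed line (signal 80.4) and crosses at the left edge, at no value, for genes with no pooled row. Right, the rank of the strongest such summit in each replicate list (log scale, strongest at right), with the dashed line at rank 3816; eIF6 stands apart at rank 27 in replicate 2 and 58 in replicate 3.

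The genes of the eIF2 ternary complex and its exchange factor were mostly listed in the pooled list and below the optimal list. A pooled promoter summit was found at 8 of 10 (49.0 to 94.3%, all protein-coding genes 48.0%). In the optimal list 1 of 10 had one (1.79 to 40.4%, all protein-coding genes 18.6%). The exception, eIF2A (FBgn0037135, 3L 21824740 to 21827856, plus strand), encodes a separate protein that can deliver initiator tRNA without eIF2, as known from mammals. Its summit at 21824898 had a signal of 99.4 and rank 2926, and the replicates placed it at rank 2438 (signal 64.2) and rank 5311 (signal 31.0). It lay 67 bp upstream of the inner start, in the 5′ UTR of transcripts from the outer start, and near no other gene's start.

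Of the 3 subunits of eIF2 itself, eIF2gamma, which binds GTP and the tRNA, had the strongest row, with a pooled signal of 66.3 and replicate signals of 32.1 and 34.7; it shares a start with Su(var)3-9. The subunit gene eIF2beta had 56.4 pooled at position -278 from its start, with 25.3 in replicate 2 and 23.8 in replicate 3 at that site, while the strongest row of replicate 3, 27.6, lay 248 bp downstream of the start. The gene eIF2alpha, whose product is phosphorylated by stress kinases to slow initiation, had 21.7 in replicate 3 and no row in the other lists. No subunit of the eIF2 trimer therefore reached the optimal list.

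The tRNA-delivering factor eIF2D had the highest pooled signal outside the optimal list, 70.5 (rank 4493), against 80.4 at the weakest optimal peak and 94.2 at the weakest optimal summit of an initiation factor gene. In replicate 2 it had 33.8 (rank 5229) and in replicate 3 it had 44.7 (rank 3117), where it stood among the 3816 strongest. The pooled summit lay at position -29 from the start, that of replicate 2 at -225 and that of replicate 3 at -60. Among the subunits of eIF2B, the pooled signals were 61.4 for eIF2Bepsilon, which carries the catalytic centre, 45.9 for eIF2Balpha, 41.8 for eIF2Bdelta and 37.7 for eIF2Bbeta. Starts of other genes lay 107 bp from eIF2Bepsilon (Ocrl), 90 bp from eIF2Balpha (Vps13B) and 58 bp from eIF2Bdelta (roh). The pooled signals at these genes therefore cannot be given to the eIF2B gene alone. The catalytic partner eIF2Bgamma had no row in any list. The replicates differed within the complex: eIF2Bepsilon had 41.4 (rank 4099) in replicate 2 and 19.4 (rank 11072) in replicate 3, while eIF2Balpha had no row in replicate 2 and 37.7 (rank 3975) in replicate 3. For eIF2Bdelta the replicate signals were 18.7 (rank 15036) and 26.5 (rank 6669). For eIF2Bbeta they were 26.7 (rank 7405) and 18.4 (rank 12094), the former at position -26 from the start, beside the pooled summit, and the latter 224 bp downstream.

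Of the 16 eIF3 genes, 5 had an optimal promoter summit (14.2 to 55.6%) and 10 a pooled one (38.6 to 81.5%). Among all protein-coding genes these shares were 18.6% and 48.0%. The 5 with an optimal summit include both scaffold subunits that span the complex, eIF3a and eIF3c. The summit of eIF3c (FBgn0034258, 2R 17665678 to 17669275, plus strand) at 17665663 had a signal of 322 and rank 436, the second strongest of the family. Replicate 2 gave 235 (rank 280) and replicate 3 gave 89.0 (rank 980). It was intergenic, 15 bp upstream of the start, and near no other gene's start.

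The gene eIF3a (FBgn0037249, 3R 4429798 to 4433895, minus strand) had a summit at 4433931 with a signal of 148 and rank 1697, with 64.0 (rank 2451) and 78.9 (rank 1208) in replicates 2 and 3. This summit lay between divergent genes, 36 bp upstream of eIF3a and 34 bp upstream of CG1074. The replicate summits were 1 bp apart, the closest of all.

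The subunit gene eIF3h (FBgn0022023, 2L 5051193 to 5053094, minus strand) was the only initiation factor gene with more than 1 optimal promoter summit. The stronger, at 5052485, had a signal of 254 and rank 688, with 162 (rank 593) in replicate 2 and 81.9 (rank 1132) in replicate 3. It lay 295 bp downstream of the nearest start, in an intron of eIF3h. The weaker, at 5052761 and 19 bp downstream in the 5′ UTR, had a signal of 100.2 and rank 2894, and there the replicates ranked it in the opposite order, 4763 in replicate 2 (36.4) and 1545 in replicate 3 (69.1). Both summits were within 500 bp of senju, whose start lies 63 bp from that of eIF3h on the opposite strand.

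The subunit gene eIF3m (FBgn0033902, 2R 14163066 to 14164825, minus strand) had a summit at 14164805 with a signal of 142 and rank 1781, with 97.8 (rank 1383) and 53.7 (rank 2320) in the replicates. It lay 20 bp downstream of a start, in the 5′ UTR, and within 500 bp of CG8323. Its replicate summits were 137 bp apart, the widest spacing among the 12. The gene eIF3d1 (FBgn0040227, 3R 23680039 to 23682317, plus strand), whose mammalian counterpart can bind the cap of selected mRNAs, had a summit at 23679972 with a signal of 102 and rank 2833. It was ranked 2284 in replicate 2 (67.7) and 9709 in replicate 3 (20.9), the largest gap in rank between replicates at an optimal summit of the family.

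Another 5 eIF3 genes had a pooled promoter summit only. Their pooled signals were 54.1 for eIF3k, 45.6 for eIF3f1, 43.4 for eIF3b, which carries an RNA recognition motif, 34.0 for eIF3e and 32.5 for eIF3l. In replicates 2 and 3 the signals were 23.5 and 24.9 for eIF3k, 30.0 and 12.0 for eIF3f1, and 16.9 and 17.3 for eIF3l. The summit of eIF3b was in replicate 3 alone (24.5) and that of eIF3e in replicate 2 alone (23.8), besides the pooled list. The gene eIF3i had 11.7 and eIF3f2 14.97 in replicate 3 only, both below that list's median of 16.99, and the lowest signal there was 11.04. The genes eIF3d2, eIF3g1, eIF3g2 and eIF3j had no row within 500 bp of a start in any list.

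Of the 11 eIF4 genes, 1 had an optimal promoter summit (1.62 to 37.7%) and 3 a pooled one (9.75 to 56.6%). Among all protein-coding genes these shares were 18.6% and 48.0%. The optimal summit was at eIF4G2 (FBgn0260634, 3R 23808285 to 23819237, minus strand), a variant of the eIF4G scaffold known for its role in spermatogenesis. It lay at 23819242, 5 bp upstream of a start that eIF4G2 shares with CG33111, inside an intron of CG34355, and had the lowest signal of the 11 genes, 94.2, at rank 3129. The replicate ranks were 3820 (signal 43.97) and 2678 (49.3), so replicate 2 placed it just outside its 3816 strongest peaks.

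The helicase gene eIF4A had a pooled signal of 60.5 at 5981673 on 2L, with 26.3 in replicate 2 and 19.1 in replicate 3 at the same site. Its strongest row in replicate 3, 31.3, was at 5982479, near another of its starts, where the pooled list had 54.3 at 5982408. The gene eIF4H1, which encodes a cofactor of the helicase, had 37.5 pooled and 21.1 in replicate 3. The main scaffold gene eIF4G1 had 16.8 in replicate 3 only, and eIF4B, another helicase cofactor, 24.8 in replicate 2 only. The optimal summit nearest to eIF4B was 4979384 bp away. No list had a row at the cap-binding variants eIF4E3, eIF4E4, eIF4E5, eIF4E6 and eIF4E7, or at eIF4H2.

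Several factors have a main gene and further copies, and the copies eIF3d2, eIF3f2, eIF3g2, eIF4E3, eIF4E4, eIF4E5, eIF4E6, eIF4E7, eIF4G2 and eIF4H2 were set apart, a grouping chosen after their values were seen. Of these 10, eIF4G2 alone was in the optimal or pooled list, and 8 were in no list, a share not computed for all protein-coding genes. Of the other 32 genes, 10 (31.3%) had an optimal promoter summit, where all protein-coding genes had 18.6%, and 25 (78.1%) a pooled one, where all had 48.0%. Since the copies were removed with their values known, these shares support nothing. The remaining genes with no row in any list were eIF2Bgamma, eIF3g1 and eIF3j.

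Many Drosophila genes start close to a neighbour, and a summit between them cannot be given to either gene. Of the 12 optimal summits at initiation factor genes, 8 (66.7%) also lay within 500 bp of a start of another gene, against 45.8% of all optimal summits at protein-coding starts, and 4, those of eIF6, eIF1, eIF3a and eIF1A, were closer to the other gene. The neighbours were RpL28 and snoRNA:Or-CD11a at eIF1, and Vps39, CG1074, senju, CG8323, asRNA:CR45928 and CG33111. The summits of eIF3c, eIF5B, eIF3d1 and eIF2A had no other start within that distance. A start of another gene lay within 500 bp of a start in 19 of the 42 genes (45.2%) and in 34.4% of protein-coding genes. Among those 19, 8 had an optimal promoter summit (42.1%), where 34.8% of protein-coding genes with such a neighbour had one. Among the other 23, 3 had one (13.0%), where the background was 10.1%. The part that neighbours play in the count was not tested. Sharing was counted for optimal summits only, so summits in the pooled list alone may be shared as well.

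**Figure D3:**
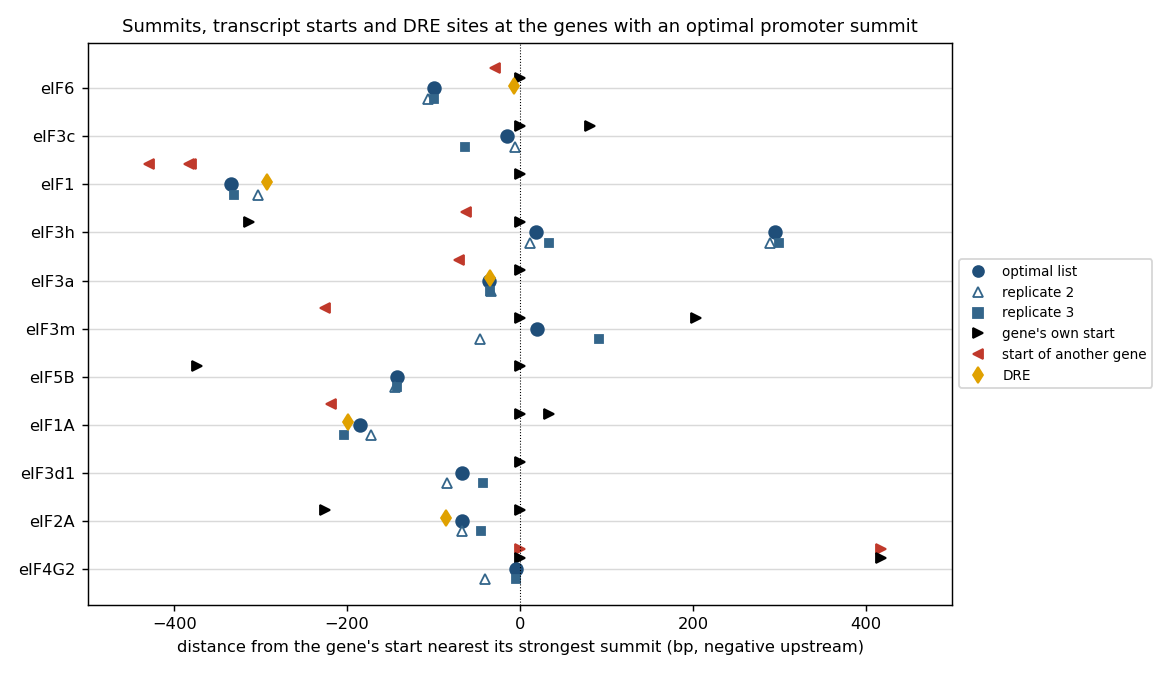
Distance in bp from the gene's start nearest its strongest summit (horizontal, negative upstream) to the optimal summits (large circles), the replicate summits, the transcript starts of the gene and of other genes (arrowheads pointing in the direction of transcription) and the DRE sites within 100 bp of a summit, for the 11 genes ordered by signal. The summits of eIF1 and eIF1A lie 334 and 185 bp upstream, next to the starts of RpL28 and Vps39, while that of eIF3c lies 15 bp from its own start.

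Taking the strongest optimal summit of each gene, 9 of 11 lay upstream of the nearest start, with a median of -67 bp, and 7 of 11 (63.6%) lay within 100 bp of it. Over the 2601 protein-coding genes with a summit the median was -123 bp, 89.7% were upstream and 37.6% lay within 100 bp. The median signal was 142 for the 11 genes, from 94.2 to 1018, and 149 for all genes with a summit. The summits of the family were thus not stronger at the median than those of other genes, and eIF6 stood alone at the upper end.

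The replicates were compared at the same summits. All 12 optimal summits had a row in both replicate lists, with a median of 25 bp between the replicate summits and a range of 1 to 137 bp. When each replicate was limited to its 3816 strongest peaks, 8 of 12 (66.7%) were matched within 100 bp in both, against 71.8% of all optimal summits at protein-coding starts. The 4 unmatched were eIF3d1, eIF2A, eIF4G2 and the weaker summit of eIF3h. The first pair ranked outside the strongest peaks in replicate 3, and the others in replicate 2.

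By gene, 10 of 42 had a promoter summit among the 3816 strongest peaks of replicate 2 (23.8%, all protein-coding genes 18.6%) and 10 among those of replicate 3 (23.8%, all protein-coding genes 18.5%). Both had one at 8 genes, 19.0%, beside 14.5% of protein-coding genes. Replicate 3 alone placed eIF2D and eIF4G2 there, and replicate 2 alone eIF2A and eIF3d1. In the whole lists, 23 genes had a row in replicate 2 (54.8%, background 45.1%), 29 in replicate 3 (69.0%, background 52.9%) and 21 of 42 in both (background 36.6%). Counts by gene do not require the replicate summits to lie at the same site. The strongest rows of eIF2beta, eIF2Bbeta, eIF2D, eIF3m and eIF4A lay over 100 bp apart in the replicates. The whole lists include background regions, so a row there is weak evidence of a peak.

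**Figure D4:**
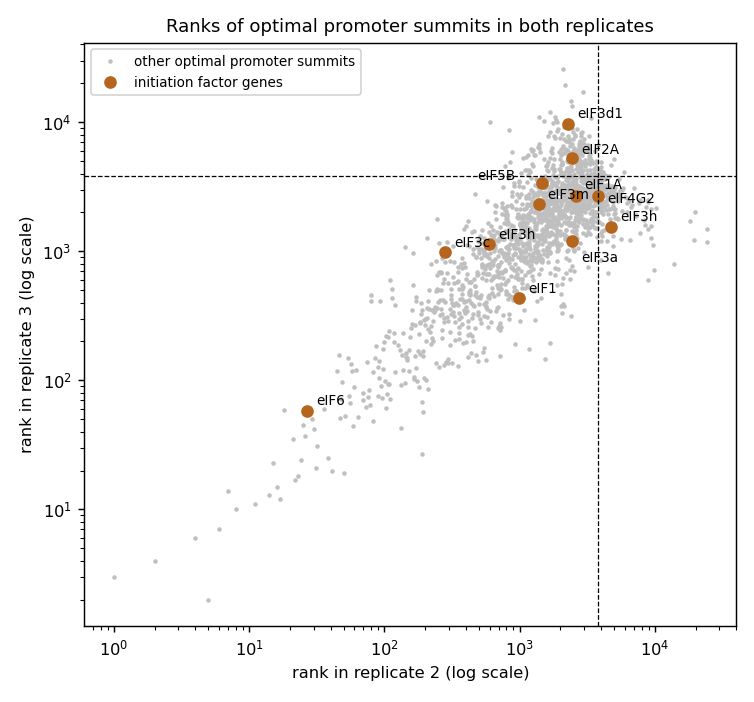
Rank of each optimal summit at a protein-coding start in replicate 2 (horizontal) and replicate 3 (vertical), both on log scales with the strongest peaks at low rank, and dashed lines at rank 3816. The 12 summits of initiation factor genes lie among the others, from eIF6 at ranks 27 and 58 to eIF3d1 at ranks 2284 and 9709.

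How far the comparison with all genes depends on list length was described by taking ever more of the strongest pooled peaks. With the 1000 strongest, 9.52% of the initiation factor genes and 5.89% of protein-coding genes had a promoter summit, and with 2000 these were 16.7% and 11.1%. With 6000 they were 38.1% and 25.7%, and with 12000 they were 57.1% and 36.9%. The family's share then stayed at 61.9% to the end of the list, while that of all genes went on to 48.0%. The share of the family was the higher one at each of these lengths, but with the 400 strongest it was 2.38% against 2.52%.

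**Figure D5:**
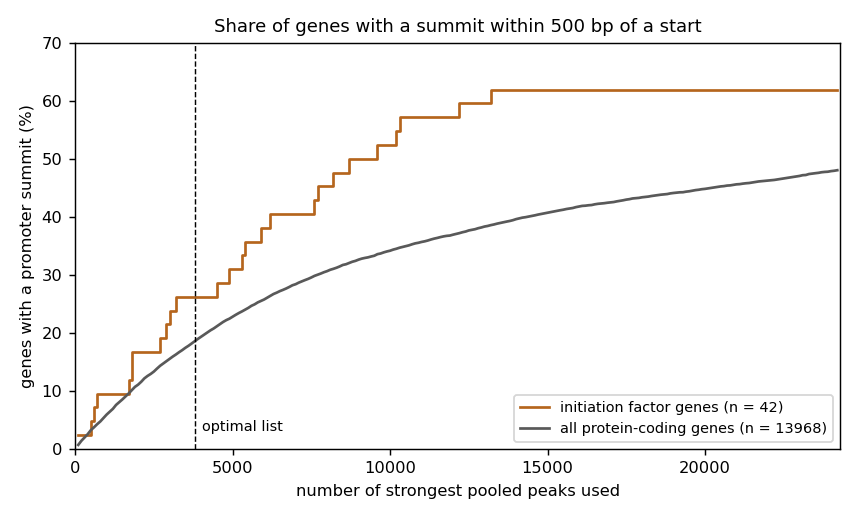
Percentage of genes with a summit within 500 bp of a start (vertical) against the number of strongest pooled peaks used (horizontal), for the 42 initiation factor genes and all 13968 protein-coding genes, with the dashed line at the 3816 optimal peaks. The line of the initiation factor genes stands at 26.2% against 18.6% at the dashed line and levels off at 61.9%.

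Other genes of translation give a context for the family. Of 11 genes of elongation and termination, 7 had an optimal promoter summit: eEF1gamma (signal 291), eEF1alpha1 (275), which delivers aminoacyl-tRNA, eEF5 (121), eEF2 (114.7), the translocase, the release factors eRF1 (109) and eRF3 (86.8), and pix (86.6), which recycles ribosomes. The genes eEF1alpha2, eEF1beta, eEF1delta and eEFSec had none. Of 22 regulators of initiation and related factors, 10 had one. These were eIF4EHP (272), the cap-binding competitor known to be recruited to hunchback mRNA by Brat, a partner of Pum and Nanos, the growth kinase gene mTor (213) and its activator Rheb (141), and pAbp (170), the poly(A)-binding protein gene. The others were MCTS1 (140), kra (138), Gcn2 (124), an eIF2alpha kinase, NAT1 (116), an eIF4G relative, mxt (106), which encodes an eIF4E-binding protein, and Lk6 (82.1), a kinase of eIF4E.

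The other 12 regulators had none in the optimal list: Thor, the 4E-BP of the fly, eIF4E1, 4E-T, cup, Paip2, Pdcd4, PEK, PPP1R15, crc, DENR, raptor and S6k. The main cap-binding gene eIF4E1 had a pooled signal of 72.4, rank 4346, with 52.4 (rank 3115) in replicate 2. The strongest row in replicate 3, 18.2, was at position -56 from a start, where the others were 84 and 85 bp downstream. It therefore stood just above eIF2D and, like it, among the strongest peaks of 1 replicate. These lists were small, their shares were not tested against the family, and 18.6% of all protein-coding genes is the value to read them beside.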

How the data were processed

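The 2 libraries were described as 1 group, and no test between groups was possible. Per the deposited files, the authors made lists from dm6 alignments with a control file: 1 list for each replicate, a pooled list from both alignments, and an optimal list from these. Each row carries a signal value and the −log10 of a q-value, both deposited by the authors. For the peak caller, the settings and the cut-off for reproducibility, a statement is not given in the sources used here. At 97.5% of optimal rows the −log10 q-value was at its maximum, 3.89, so peaks were ranked by signal. Read depth is unknown. The dm3 lists were not used, and there were 0 columns of other samples.

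The annotation was BDGP6.54 of Ensembl, release 115, without transposable elements, and the sequence from the RefSeq Release 6 assembly. A summit counted for every gene with a start within 500 bp. In replicate lists, the strongest peaks were as many as in the optimal list. One listed gene, Tor, was matched through 1 synonym to mTor. Every initiation factor gene is named, and other genes only where a start lay within 500 bp of one of the described summits or where they were on the lists of translation genes. The members and lists were chosen with earlier results of these data known. The code was tested on simulated data: of 200 summits placed at starts among 18277 genes, 200 were recovered. Alternatives were other windows, list cut-offs, start choices and single replicates. Python 3.11.15, numpy 2.4.6, pandas 2.3.3, scipy 1.17.1 and matplotlib 3.10.9 were used.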

Additional observations from a re-analysis of the deposited data

How the results depend on the processing

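Of 57 recomputed values, 42 stayed within 1.5 times the reported count or close to the reported value, and 15 moved. With the stronger 50% of optimal peaks, 7 genes had a promoter summit (all protein-coding genes 10.7%), at 7 distinct summits of which 5 were shared, and the median signal was 254. Giving each summit only to the nearest start left 7 genes (eIF1, eIF1A, eIF3a and eIF6 were lost) and 1 shared summit, with 13.0% of all protein-coding genes. Counting peak intervals over a start gave 5 shared summits. The median position of the 12 summits was -51.5 bp, and -67 bp both with a window of 1000 bp and with all rows kept. A window of 250 bp lost eIF1 and one of 1000 bp added eIF2Bbeta and eIF2Bdelta. Rows with a −log10 q of at least 2 gave 15 genes in the pooled list (all protein-coding genes 24.1%) and 10 in both replicate lists (18.0%). With 1908 peaks for each replicate, 4 genes were among the strongest of both (8.15%). A DRE within 100 bp of an optimal summit was found at 5 genes, where the promoter windows gave 13. Leaving out replicate 2 or replicate 3 meant taking the 3816 strongest peaks of the other, so the 10 genes each time repeat counts given above. These genes had 10 to 11 distinct and 6 to 8 shared summits. The median signals were from 66.3 to 95.6, which are on the scale of the remaining replicate's list. The stricter lists hold fewer peaks, and the cause of these shifts was not tested. No paired analysis was possible because there was 1 group. With 42 genes, 2 libraries and unknown depth, the absence of a row does not show that a promoter is unbound.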

Other observations

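Some initiation factor genes without an optimal promoter summit lay near an optimal summit beyond 500 bp. The start of eIF2Bbeta on X was 686 bp from the summit at the start of Ugalt, which had a signal of 2357 and rank 2 in the optimal list. A start of eIF2Bdelta was 756 bp from a summit with a signal of 83.9, that of eIF2Bgamma 1276 bp from one with 192, that of eIF3g1 1378 bp from one with 187 and that of eIF2D 1616 bp from one with 103.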
